A study of Mus musculus with 4 samples.

Results

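The 30 genes described here make cholesterol, sense it, and move or store it in the mouse cell. They were chosen by name from the array's annotation, and all 30 were among the 35242 gene names with a value. Where a gene had several probes, which was so for 10 of them, its brightest probe by the mean over the arrays stands for it. By role the genes fall into 7 of the mevalonate and isoprenoid steps, 10 of the squalene and sterol steps, 5 of sterol sensing, and 8 of transport, storage and oxysterol reception.

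RNA of 4 mouse cell populations was labelled with Cy3 and hybridized to 1-colour Agilent arrays, 1 array for each population. iPS-OSH and iPS-J are induced pluripotent stem lines on the C57BL/6 background, ESC are embryonic stem cells on the 129SV background, and MEF are embryonic fibroblasts on the C57BL/6 background. All 3 pluripotent populations grew with the cytokine LIF and 2-Me with more serum, whereas MEF grew in a medium for which neither addition is listed. How each iPS line was made, and whether it is 1 clone, is not given in the sources used here.

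Cells build cholesterol from acetyl-CoA through mevalonate, farnesyl diphosphate, squalene and lanosterol. When sterol in the endoplasmic reticulum is low, Scap escorts the SREBP transcription factors (products of Srebf1 and Srebf2) to the Golgi for cleavage, and the SREBPs then switch on the synthesis genes, while the Insig proteins hold Scap back when sterol is plentiful. Oxysterols, oxidized forms of cholesterol, activate the LXR receptors (Nr1h2 and Nr1h3), whose best known targets are the exporters Abca1 and Abcg1.

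The promoters of 6 of the genes are printed to show what the letters upstream of the synthesis genes hold, next to 1 export gene. They are the Hmgcs1, Idi1, Cyp51, Hsd17b7 and Sc5d promoters, whose genes differ from MEF below by more than 2-fold on at least 2 of the pluripotent arrays, and the Abca1 promoter. Each run is the 250 bases before the start site from RefSeq on GRCm38.p6, read 5′ to 3′ on the gene's strand. Capitals mark the CCAAT box (CCAAT, or ATTGG where it lies on the other strand) in the synthesis genes, together with the sterol-response-like element TCACNCCAC in Hmgcs1, and the E-box CACGTG in Abca1. CACGTG also lies in the Hsd17b7 and Sc5d runs, where it is left unmarked. GGGCGG lies on either strand in all 6 runs and is unmarked throughout.
Hmgcs1 (chr13:119690101-119690350, plus strand): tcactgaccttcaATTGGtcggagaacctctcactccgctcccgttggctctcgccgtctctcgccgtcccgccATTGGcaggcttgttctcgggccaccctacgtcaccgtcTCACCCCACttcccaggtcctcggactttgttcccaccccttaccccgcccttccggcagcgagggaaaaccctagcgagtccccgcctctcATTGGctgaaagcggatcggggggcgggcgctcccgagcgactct
Idi1 (chr13:8885356-8885605, plus strand): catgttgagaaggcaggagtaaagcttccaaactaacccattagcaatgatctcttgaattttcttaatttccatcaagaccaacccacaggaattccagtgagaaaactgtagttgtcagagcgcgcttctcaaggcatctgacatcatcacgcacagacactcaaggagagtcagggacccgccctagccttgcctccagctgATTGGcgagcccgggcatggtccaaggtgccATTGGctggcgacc
Cyp51 (chr5:4104698-4104947, minus strand): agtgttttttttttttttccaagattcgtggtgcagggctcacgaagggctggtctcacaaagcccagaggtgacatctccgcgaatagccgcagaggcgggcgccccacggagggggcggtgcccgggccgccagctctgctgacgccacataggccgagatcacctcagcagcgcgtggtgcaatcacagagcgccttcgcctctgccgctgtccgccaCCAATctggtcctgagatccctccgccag
Hsd17b7 (chr1:169969206-169969455, minus strand): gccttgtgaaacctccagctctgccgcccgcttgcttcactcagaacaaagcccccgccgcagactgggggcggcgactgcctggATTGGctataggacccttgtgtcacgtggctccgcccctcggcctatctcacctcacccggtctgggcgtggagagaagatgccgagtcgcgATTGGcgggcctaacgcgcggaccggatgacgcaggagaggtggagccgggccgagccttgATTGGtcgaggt
Sc5d (chr9:42264301-42264550, minus strand): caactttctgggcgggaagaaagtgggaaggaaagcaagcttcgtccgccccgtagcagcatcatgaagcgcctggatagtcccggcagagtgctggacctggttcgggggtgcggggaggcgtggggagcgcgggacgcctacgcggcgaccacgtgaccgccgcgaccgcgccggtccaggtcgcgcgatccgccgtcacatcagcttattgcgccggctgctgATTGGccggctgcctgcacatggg
Abca1 (chr4:53159896-53160145, minus strand): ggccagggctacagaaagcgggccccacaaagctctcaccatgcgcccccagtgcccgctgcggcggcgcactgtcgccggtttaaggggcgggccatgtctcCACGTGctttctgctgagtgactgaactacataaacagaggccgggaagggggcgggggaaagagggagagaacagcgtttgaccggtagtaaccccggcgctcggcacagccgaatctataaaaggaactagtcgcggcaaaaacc

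CCAAT is the letter core bound by NF-Y, a factor known to act beside SREBP, and GGGCGG is the GC box bound by Sp1. A promoter window of 250 bases before to 50 after the start was held for 24 of the 30 genes, and none was held for Abcg1, Sqle, Stard4, Npc1, Fdps and Fdft1. Searched on both strands, CCAAT lay in a window of 19 of the 24 genes (79.2%), against 42.3% of 17492 protein-coding genes. Among the synthesis enzymes with a window it lay in 13 of 14, all but Acat2, and among the 5 transport, storage and receptor genes in Soat1 and Npc2. GGGCGG lay in 21 of the 24 genes (87.5%), against 49.2% of protein-coding genes. CACGTG lay in 6 (25%; Hsd17b7, Sc5d, Dhcr7, Scap, Insig1 and Abca1), against 8.91%. TCACNCCAC matched only in Hmgcs1 among the 24 (4.17%, at -137 from the start), against 1.41%. The LXR-type direct repeat (DR4) matched in none of the 24 genes, and in none of the 17492 protein-coding genes. Some genes have several windows and therefore more chances of a match, and a match describes letters, not binding.

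All values below are scaled signals, that is, the processed intensity divided by the 75th percentile of its array, and they are given in the order iPS-OSH, iPS-J, ESC and MEF. Probes bind with different strength, so a signal is compared between arrays for 1 gene and never between genes. With 1 array for each population there is no replicate check, no error over cultures and no p-value, and a 2-fold difference in either direction, which is 1 on the log2 scale, is the size rule used for counting. Probes printed 10 times on an array give a technical SD of 0.12 to 0.20 log2 for a difference, which covers spot noise only. Between 67.0% and 81.7% of spots were well above background on an array, and every one of the 30 genes was so on all 4 arrays, so no value of theirs is a bound. The scans fell into 3 sessions, 1 for MEF, 1 shared by the iPS lines and 1 for ESC, so session cannot be told apart from population in any comparison with MEF or ESC, nor strain in any with ESC. The medium, which was another one for MEF, cannot be told apart from population in any comparison with MEF. The labelled identities were checked by markers. The 8 pluripotency markers summed to 266, 391, 482 and 0.686, with Sox2 and Zfp42 not well above background on MEF, and the 8 fibroblast markers summed to 268, 52.3, 42.7 and 1014. Zfp42 alone gave 132 of the ESC sum, but only 4.64 in iPS-OSH and 6.80 in iPS-J. In RNA from a whole culture, fewer cells of a type and less RNA per cell cannot be told apart.

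The cholesterol genes as a group were brightest in MEF. The highest of the 4 signals was that of MEF for 23 of the 30 genes (76.7%), against 34% of the 24332 genes well above background on all arrays. This held for all 7 mevalonate genes, 8 of the 10 sterol-step genes and all 5 sensing genes. Of the 8 transport and receptor genes it held for 3 (37.5%), which is near the 34% of all genes. The exceptions among the synthesis enzymes were Tm7sf2 and Dhcr7, both highest in iPS-J. For Dhcr7, iPS-J lay only 0.01 above ESC, and the sign turned under 4 of 8 alternatives. Only Abca1 and Abcg1 were lowest in MEF (6.67%, against 31%), and under other processings this held for 1 to 4 genes, with Abca1 turning below MEF in ESC under 3 of 8 alternatives. Of the other arrays, iPS-OSH was highest for Abca1, Nr1h2 and Nr1h3 (10%, against 11.2%), iPS-J for Tm7sf2, Dhcr7 and Npc1 (10%, against 21.8%), and ESC for Abcg1 alone (3.33%, against 33%). Over all 4 arrays 7 genes stayed within 2-fold (23.3%, against 34.1%).

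**Figure D1:**
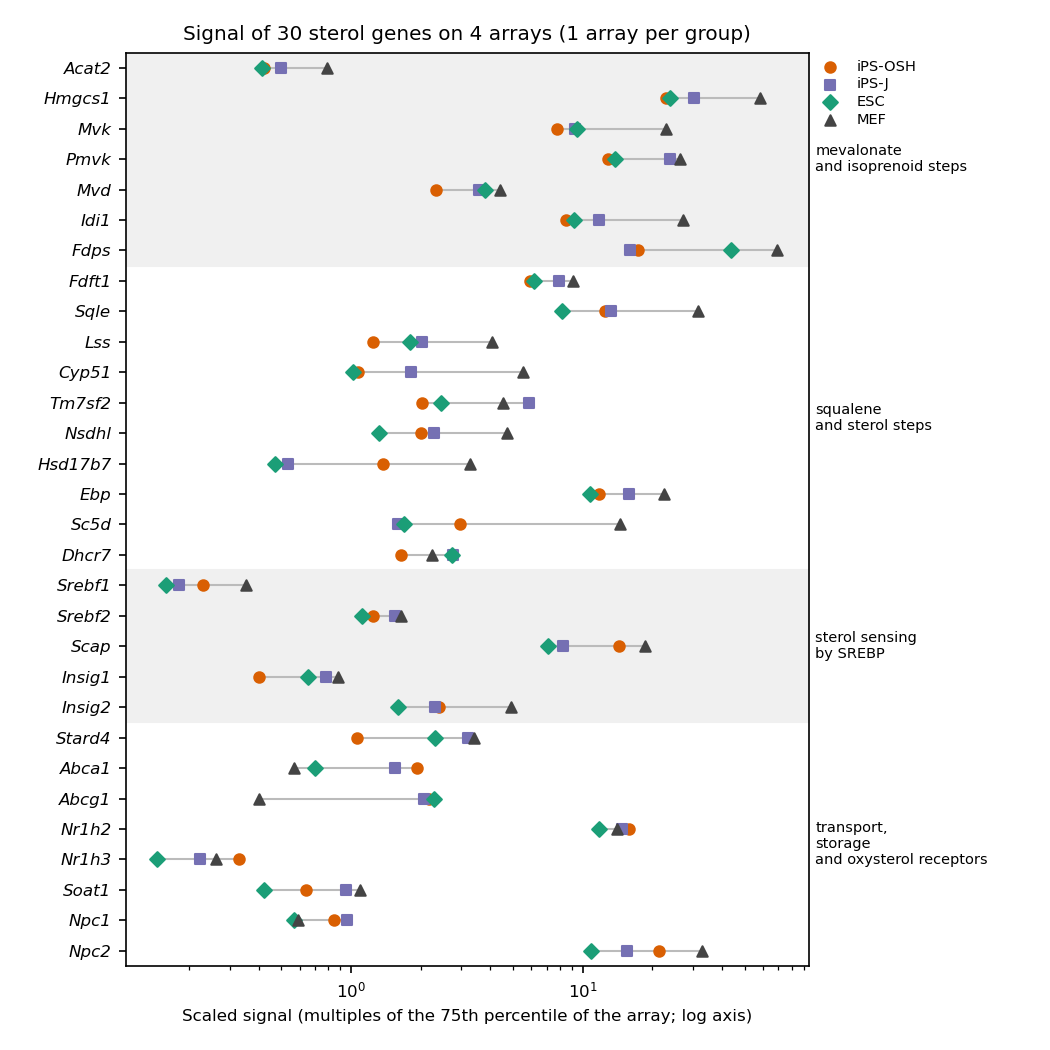
Scaled signal (multiples of the 75th percentile of the array, log axis) of each of the 30 genes, with 1 point for each array and a line over their range. The MEF triangle is the highest point for 23 genes (22 to 25 under other processings) and the lowest for Abca1 and Abcg1 (1 to 4 genes).

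Set against MEF, 15 of the 30 genes were at least 2-fold lower in iPS-OSH, where 23.4% of 31217 genes were. In iPS-J 12 were lower, against 24.6% of 30713 genes, and in ESC 15 were lower, against 16.5% of 31451 genes. Higher genes were few, with 2 for iPS-OSH (background 12.8%), 2 for iPS-J (16.2%) and 1 for ESC (22.1%). The median log2 difference of the 30 genes was -0.98, -0.58 and -0.99 in the same order, beside -0.32, -0.27 and 0.13 for all genes compared. These 3 comparisons share the MEF array, so their values stand side by side and do not support one another.

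Among the 17 synthesis enzymes 12 were lower for iPS-OSH, 9 for iPS-J and 10 for ESC, and none was at least 2-fold higher in any, with medians of -1.25, -1.01 and -1.18. Of the 13 sensing, transport and receptor genes 3, 3 and 5 were lower, and 2, 2 and 1 were higher, with medians of -0.40, -0.18 and -0.56. The shares over all genes compared were 23.4%, 24.6% and 16.5% lower and 12.8%, 16.2% and 22.1% higher. For both iPS lines the counts of these 13 genes lie near those shares. The counts by role that follow are to be read beside the same shares.

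**Figure D2:**
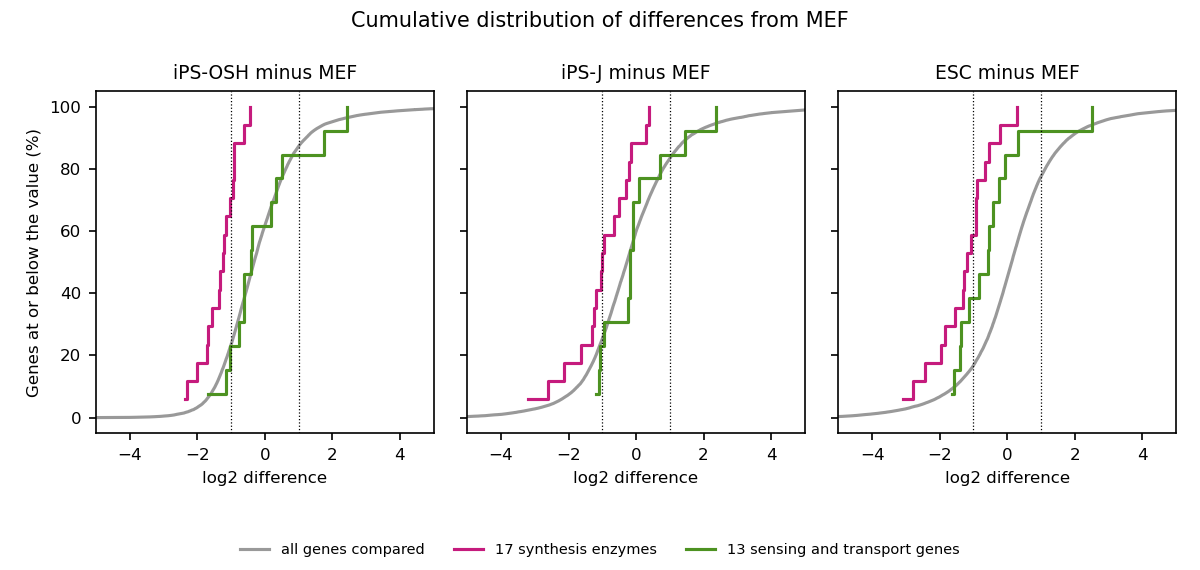
Percentage of genes at or below each log2 difference from MEF, for all genes compared (grey), the 17 synthesis enzymes (magenta) and the 13 sensing and transport genes (green). The middle of the magenta steps lies left of the grey curve in all 3 panels, with magenta medians of -1.25, -1.01 and -1.18 against grey medians of -0.32, -0.27 and 0.13, while the grey curve reaches further into the low tail.

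The mevalonate and isoprenoid genes were lower than MEF in 5 of 7 cases for iPS-OSH and 3 of 7 for either of the others, with medians of -1.35, -0.94 and -0.92. Acat2, the cytosolic thiolase that joins acetyl-CoA units, had signals of 0.421, 0.498, 0.414 and 0.785, a difference from MEF of -0.90, -0.66 and -0.92. Hmgcs1, the synthase of HMG-CoA, had 22.9, 30.4, 23.8 and 58.4. MEF stood apart on this probe, with differences of -1.35, -0.94 and -1.30, while the pluripotent arrays lay within 0.41 of one another. The Hmgcs1 probe is placed by the files on an unplaced part of chromosome 13 in mm9.

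Mvk, mevalonate kinase, had signals of 7.76, 9.23, 9.45 and 23.0, and was lower than MEF by the 2-fold rule on all 3 arrays (-1.57, -1.32 and -1.28). Its other probe gave -1.15, -1.33 and -1.43. Pmvk, the kinase of the next step, gave 12.9, 23.9, 13.8 and 26.2. Here iPS-J lay close to MEF (-0.13), whereas iPS-OSH and ESC differed from MEF by -1.03 and -0.92. Its other probe gave -0.61, 0.25 and -0.69, so the iPS-OSH call rests on the brighter probe. Mvd, the decarboxylase that ends the mevalonate branch, read 2.33, 3.56, 3.77 and 4.38, and no array was 2-fold from MEF.

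Idi1, which interconverts the isoprene units, had 8.47, 11.8, 9.21 and 27.0, with differences from MEF of -1.67, -1.19 and -1.55. All 3 pluripotent arrays lay below MEF by more than 2-fold, and within 0.48 of one another. Fdps, farnesyl diphosphate synthase (mm9 chromosome 3, positions 88897549 to 88897608), broke this pattern. Its signals were 17.3, 15.9, 43.8 and 69.3, so both iPS lines were more than 2-fold below both MEF (-1.999 and -2.12) and ESC (-1.34 and -1.46). The iPS lines differed by 0.12, which equals the spot noise, and ESC differed from MEF by -0.66.

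In the squalene and sterol steps 7 of 10 genes were lower than MEF for iPS-OSH, 6 for iPS-J and 7 for ESC, with medians of -1.23, -1.02 and -1.51. Fdft1, squalene synthase, the first enzyme committed to sterols, varied least of them, with 5.92, 7.89, 6.19 and 9.05 and no 2-fold difference. Sqle, squalene epoxidase, had 12.5, 13.3, 8.15 and 31.5. It was lowest in ESC (-1.95 from MEF), and -1.34 and -1.24 in the iPS lines. Lss, which closes the ring to lanosterol, read 1.25, 2.03, 1.80 and 4.08, with differences of -1.71, -1.01 and -1.18.

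Cyp51, the lanosterol demethylase (mm9 chromosome 5, positions 4081471 to 4081530), gave scaled signals of 1.07, 1.81, 1.02 and 5.55. It differed from MEF by -2.37, -1.62 and -2.45, and the lowest and highest arrays were 5.45-fold apart. Tm7sf2, a sterol reductase that acts after Cyp51, had 2.03, 5.88, 2.45 and 4.55. Here iPS-J was highest, 0.37 above MEF, 1.26 above ESC and well above iPS-OSH (iPS-OSH minus iPS-J -1.53). The other Tm7sf2 probe gave 0.19, 1.002 and -0.96 for those comparisons. Primitive and visceral endoderm markers were also highest in iPS-J, with the 8 summing to 7.26, 137, 19.4 and 2.04, and 6 of the 7 compared were at least 2-fold higher in iPS-J than in ESC. Their part in the Tm7sf2 signal was not tested.

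Nsdhl and Hsd17b7 act together to remove methyl groups from the sterol ring. Nsdhl read 2.02, 2.29, 1.32 and 4.69, with differences from MEF of -1.22, -1.04 and -1.83, and its dimmer probe gave -1.76, -1.05 and -1.02. Hsd17b7 (mm9 chromosome 1, positions 171883182 to 171883241) read 1.37, 0.537, 0.469 and 3.25. Here iPS-OSH lay between MEF and the other pluripotent arrays, at -1.25 from MEF, 1.55 above ESC and 1.35 above iPS-J, while iPS-J and ESC were -2.60 and -2.79 from MEF. Of its other probes, one gave -2.22, -3.40 and -3.56 from MEF, and the dimmest gave -0.42, 0.16 and 0.49, so the Hsd17b7 probes disagree. On that dimmest probe iPS-OSH minus ESC was -0.91.

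Ebp, the sterol isomerase, had 11.8, 15.9, 10.8 and 22.5, and was called lower than MEF only in ESC (-1.06, with -0.93 in iPS-OSH and -0.50 in iPS-J). Sc5d, the desaturase near the end of the pathway (mm9 chromosome 9, positions 42062857 to 42062916), had the widest range of the 30 genes, 9.10-fold. Its signals were 2.95, 1.60, 1.70 and 14.5, with differences from MEF of -2.30, -3.19 and -3.10. Dhcr7, the reductase that completes cholesterol, differed from its neighbours in the pathway, with 1.64, 2.75, 2.73 and 2.23 and no 2-fold difference between any arrays. iPS-J and ESC were 0.01 apart on it.

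**Figure D3:**
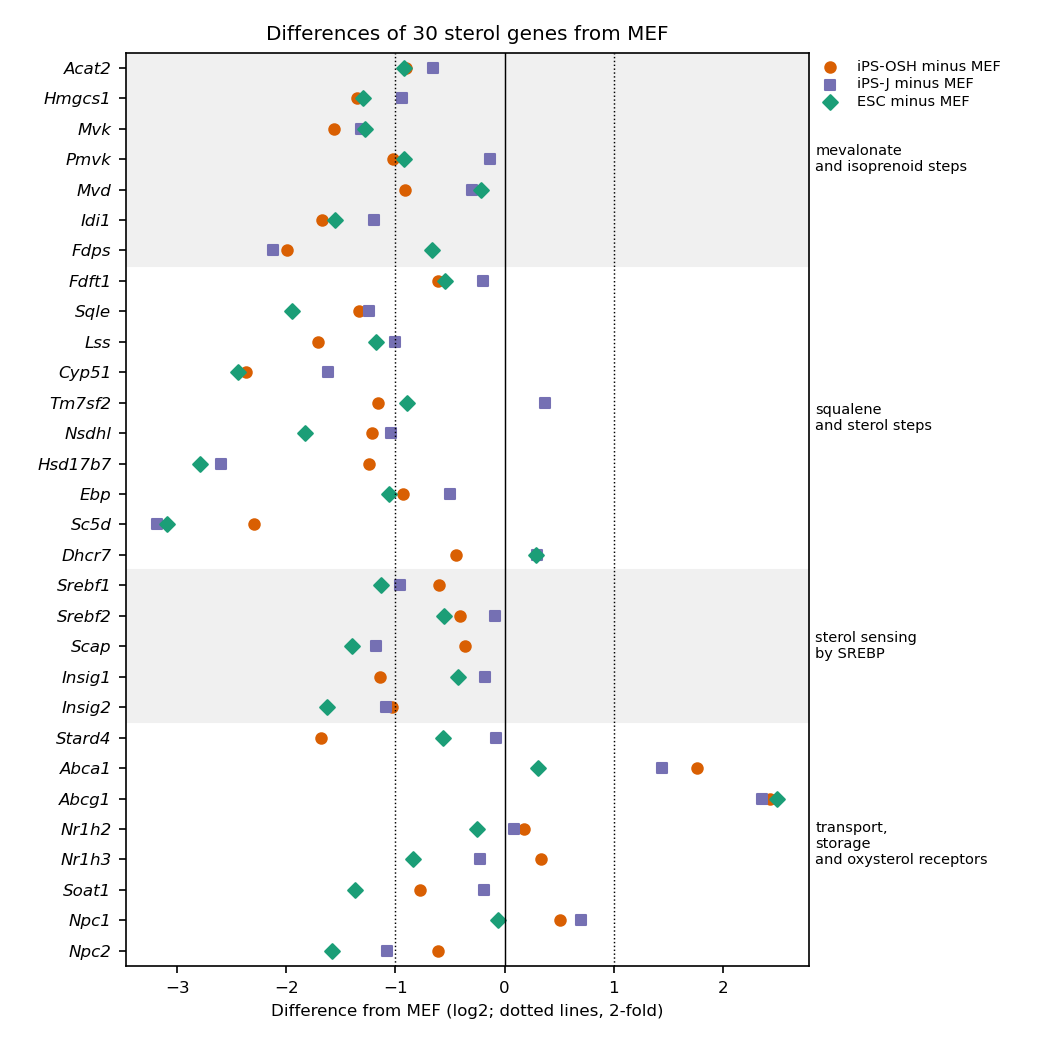
Log2 difference of each pluripotent array from MEF for the 30 genes, with dotted lines at a 2-fold difference and shading by role. Sc5d, Hsd17b7 and Cyp51 reach farthest to the left, down to -3.19, and Abcg1 farthest to the right, at 2.36 to 2.50.

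All 5 sensing genes were brightest in MEF, with medians of -0.60, -0.96 and -1.14 and 2, 2 and 3 of 5 called lower. Srebf2, the SREBP that mainly drives cholesterol synthesis, read 1.24, 1.55, 1.12 and 1.64. No array was 2-fold from another, the largest gap being -0.55 between ESC and MEF, and its other probe differed from MEF by 0.14, -0.06 and -0.05. Srebf1, which mainly drives fatty acid genes, read 0.231, 0.180, 0.160 and 0.351, with -0.60, -0.96 and -1.14 from MEF.

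Scap, the sterol-sensing escort of the SREBPs, had 14.4, 8.20, 7.05 and 18.6. iPS-OSH was the pluripotent array nearest to MEF (-0.37, against -1.18 in iPS-J and -1.40 in ESC) and lay 1.03 above ESC. Insig1, itself a target of the SREBPs, read 0.400, 0.779, 0.655 and 0.883, and was called lower only in iPS-OSH (-1.14, with -0.18 in iPS-J and -0.43 in ESC). Insig2, its relative, read 2.40, 2.31, 1.60 and 4.91. The Insig2 differences were -1.03, -1.09 and -1.62, while its other probe gave -0.26, -0.46 and -1.24, so only the ESC call is met by both probes.

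Among the transport, storage and receptor genes the pattern split, with medians of 0.26, 0.00 and -0.40 from MEF. Of the exporters, Abcg1 was more than 2-fold above MEF on all 3 pluripotent arrays, and Abca1 in the iPS lines only. Abcg1 (mm9 chromosome 17, positions 31252580 to 31252639), which passes cholesterol to lipoprotein particles, gave 2.17, 2.06, 2.27 and 0.402. It was 2.44, 2.36 and 2.50 above MEF, and the pluripotent arrays lay within 0.14 of one another, under the spot noise of these comparisons. Abca1 (mm9 chromosome 4, positions 53043944 to 53044003), which passes cholesterol to lipid-poor apolipoproteins, read 1.93, 1.55, 0.702 and 0.569. Both iPS lines were above MEF (1.76 and 1.44) and above ESC (1.46 and 1.14), whereas ESC and MEF were 0.30 apart.

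Neither LXR receptor was 2-fold from MEF on any array by its brightest probe. Nr1h2, the widely expressed LXR, had 15.8, 14.9, 11.8 and 14.0, the narrowest range of the 30 genes at 1.34-fold. Nr1h3, the LXR best known from liver and macrophages, read 0.330, 0.223, 0.146 and 0.261. Its differences from MEF were 0.34, -0.23 and -0.84, and iPS-OSH lay 1.18 above ESC. The other Nr1h3 probe gave -0.28, -0.91 and -1.15 from MEF, and 0.87 for iPS-OSH above ESC, so ESC passed the 2-fold rule against MEF on that probe alone. Over the pluripotent arrays both receptors had the order of Abca1, with iPS-OSH highest and ESC lowest. That order was also seen for Hsd17b7, Srebf1, Scap, Insig2 and Npc2, whereas Abcg1 was highest in ESC. For Nr1h2 the iPS lines were 0.09 apart, under their spot noise of 0.12. The 8 macrophage markers summed to 20.6, 14.1, 8.56 and 33.4, and the 4 hepatocyte markers to 4.19, 3.10, 3.69 and 7.24, with Alb not well above background on any array. Single markers made up most of these sums, with Itgam giving 22.7 and Apoa2 7.05 in MEF, while Cd68 was highest in iPS-J (4.22, against 2.08 in MEF), and their part in the Nr1h3 signal was not tested.

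Soat1, which esterifies cholesterol for storage, had 0.638, 0.956, 0.423 and 1.09. ESC was lowest, -1.37 from MEF, and iPS-J lay 1.18 above ESC. Stard4, a soluble carrier of sterol between membranes, read 1.06, 3.21, 2.30 and 3.40, with differences from MEF of -1.68, -0.08 and -0.56. iPS-OSH also lay below ESC (-1.12) and iPS-J (-1.60). The other Stard4 probe gave -1.12, -0.51 and -1.36 from MEF, so ESC passed the 2-fold rule on that probe, and iPS-OSH was 0.24 from ESC and -0.61 from iPS-J. Npc1 and Npc2 together pass cholesterol out of the lysosome. Npc1 read 0.842, 0.965, 0.569 and 0.592, with no 2-fold difference, and Npc2 read 21.4, 15.5, 10.9 and 32.6, with -0.61, -1.08 and -1.58 from MEF. Their orders differ, in that MEF was highest for Npc2 but below both iPS lines for Npc1.

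Among the pluripotent arrays fewer of the 30 genes differed. Between iPS-OSH and ESC, 4 passed the 2-fold rule upwards in iPS-OSH (Hsd17b7, Abca1, Nr1h3 and Scap), against 8.76% of 30623 genes. The 2 lower ones were Fdps and Stard4, where 26.5% of all genes compared were lower. Between iPS-J and ESC, Tm7sf2, Soat1 and Abca1 were higher in iPS-J (background 5.4% of 29632 genes) and Fdps was lower (24.1%). Between the iPS lines, which were scanned in the same session, Hsd17b7 was higher in iPS-OSH (background 8.22% of 29289 genes), and Stard4 and Tm7sf2 were lower (7.3%). The medians of the 30 genes were 0.10, 0.36 and -0.25, beside -0.30, -0.20 and -0.01 for all genes.

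Which array was lowest varied by gene. The lowest of all 4 signals was that of iPS-OSH for 5 of the 7 mevalonate genes, and for 11 of all 30 (36.7%, against 24.8% of all genes). ESC was lowest for 15 of the 30 (50%, against 22.6%), among them 4 of the 5 sensing genes and 5 of the 8 transport and receptor genes. iPS-J was lowest for Fdps and Sc5d alone (6.67%, against 21.6%). Several of these ranks rest on gaps under the spot noise, which was 0.17 for iPS-OSH against ESC. On Hmgcs1, Fdft1, Pmvk and Idi1, iPS-OSH lay -0.05, -0.06, -0.10 and -0.12 from ESC, and each sign turned under 2 of 8 alternatives. Likewise iPS-OSH lay only 0.02 and 0.07 above ESC on Acat2 and Cyp51, and iPS-J -0.09 from ESC on Sc5d. Fibroblast markers were higher in iPS-OSH than in the other pluripotent arrays, in 8 of 8 against both ESC (median 2.63) and iPS-J (median 2.53). Of the 23 genes brightest in MEF, 6 had their highest pluripotent signal in iPS-OSH (Hsd17b7, Sc5d, Srebf1, Scap, Insig2 and Npc2), whereas 9 had their lowest there (Hmgcs1, Mvk, Pmvk, Mvd, Idi1, Fdft1, Lss, Insig1 and Stard4), and the part of fibroblast RNA in these signals was not tested. Insig2 in iPS-OSH lay only 0.05 above iPS-J, under the spot noise of 0.12 between the iPS lines. Abca1, also highest in iPS-OSH, was lowest in MEF.

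**Figure D4:**
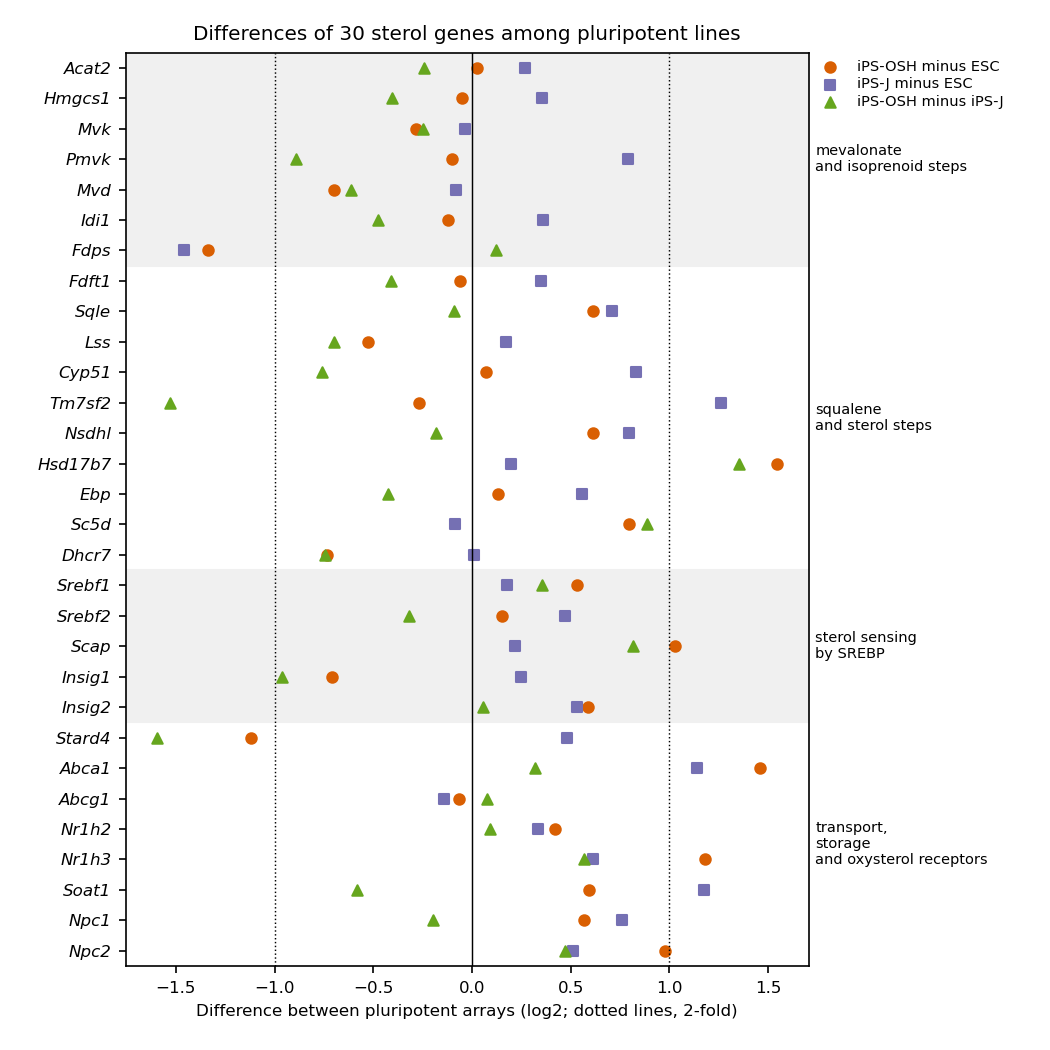
Log2 difference between the pluripotent arrays for the 30 genes, with dotted lines at a 2-fold difference and shading by role. Most points lie within the dotted lines, and the ones outside include Fdps against ESC (-1.34 and -1.46), Hsd17b7 in iPS-OSH (1.55 and 1.35) and Tm7sf2 in iPS-J (1.26 against ESC).

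A further 53 genes of sterol, oxysterol and fatty acid metabolism were counted as context, all on the array. Of these 18 were at least 2-fold lower than MEF for iPS-OSH, 20 for iPS-J and 23 for ESC, and 1, 2 and 4 were higher, with medians of -0.75, -0.70 and -0.62. The shares over all genes compared were 23.4%, 24.6% and 16.5% lower and 12.8%, 16.2% and 22.1% higher, and the counts of the smaller lists that follow are to be read beside them. The 12 remaining enzymes and uptake genes held 5, 6 and 8 lower ones and none higher. The 13 fatty acid genes under SREBP1 held 6, 7 and 5 lower ones, and the 16 genes of oxysterol formation and binding 3, 4 and 7. The 5 further LXR genes, which are targets and the partners Rxra and Rxrb, held 2 lower ones on each array. The 4 steroid genes held 2, 1 and 1, and the 3 storage genes none.

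Lrp8, a lipoprotein receptor, was the lowest of the 53 against MEF, with signals of 0.0532, 0.0668, 0.0360 and 0.849 and differences of -4.00, -3.67 and -4.56. Vldlr, its relative, read 0.767, 3.11, 0.982 and 6.86, -3.16 from MEF in iPS-OSH and 1.67 higher in iPS-J than in ESC. Acss2, which makes acetyl-CoA from acetate, read 0.485, 1.36, 2.50 and 3.18, with iPS-OSH -2.71 from MEF and -2.37 from ESC. Soat2, an enzyme that esterifies cholesterol like Soat1, was the highest of the 53 against MEF on each array, with 0.663, 2.96, 1.16 and 0.255. Its differences were 1.38, 3.53 and 2.18, opposite in direction to the Soat1 values above. Like Tm7sf2, Soat2 and Vldlr were highest among pluripotent arrays in iPS-J, where the endoderm markers were also highest.

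Ch25h, which makes an oxysterol, separated the iPS lines, with 1.80, 0.136, 0.118 and 1.65. iPS-OSH lay near MEF, 3.73 above iPS-J and 3.93 above ESC, and Ch25h was -3.60 and -3.80 from MEF in iPS-J and ESC. Osbpl5, an oxysterol-binding protein relative, read 8.70, 2.26, 1.78 and 25.8, with iPS-OSH 1.95 above iPS-J and 2.29 above ESC, and -3.52 and -3.86 from MEF in iPS-J and ESC. Lrp1, a lipoprotein and protease receptor, read 8.37, 1.63, 1.79 and 16.0, with iPS-OSH 2.36 above iPS-J and 2.23 above ESC. All 3 genes were high in MEF and in iPS-OSH, as the fibroblast markers were, and the part of those cells was not tested.

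Smaller differences completed the list. Against MEF, Cyp27a1, an oxysterol-forming enzyme, was 1.57 higher and Rxra, a partner of the LXRs, 1.31 higher in ESC, and Lpin1, a phosphatidate phosphatase, was 1.19 higher in iPS-J. The Cyp27a1 signals were dim (0.0392, 0.0492, 0.0933 and 0.0314), though well above background on every array. Gpr183, another gene of the list, was not well above background in ESC at 0.0409. Against ESC, iPS-OSH was lower in Cyp39a1 (-1.84) and Cyp46a1 (-1.31), enzymes that act on or form oxysterols. iPS-J was lower than ESC in Rxra (-1.12), Star (-1.11) and Fasn (-1.01), and higher in Soat2 (1.35) and Me1 (1.11). Msmo1, a sterol demethylating enzyme named Sc4mol in the files, read 13.9, 40.3, 23.96 and 59.2, and was -1.54 in iPS-OSH against iPS-J. Soat2 and Vldlr were also lower in iPS-OSH than in iPS-J, by -2.16 and -2.02.

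**Figure D5:**
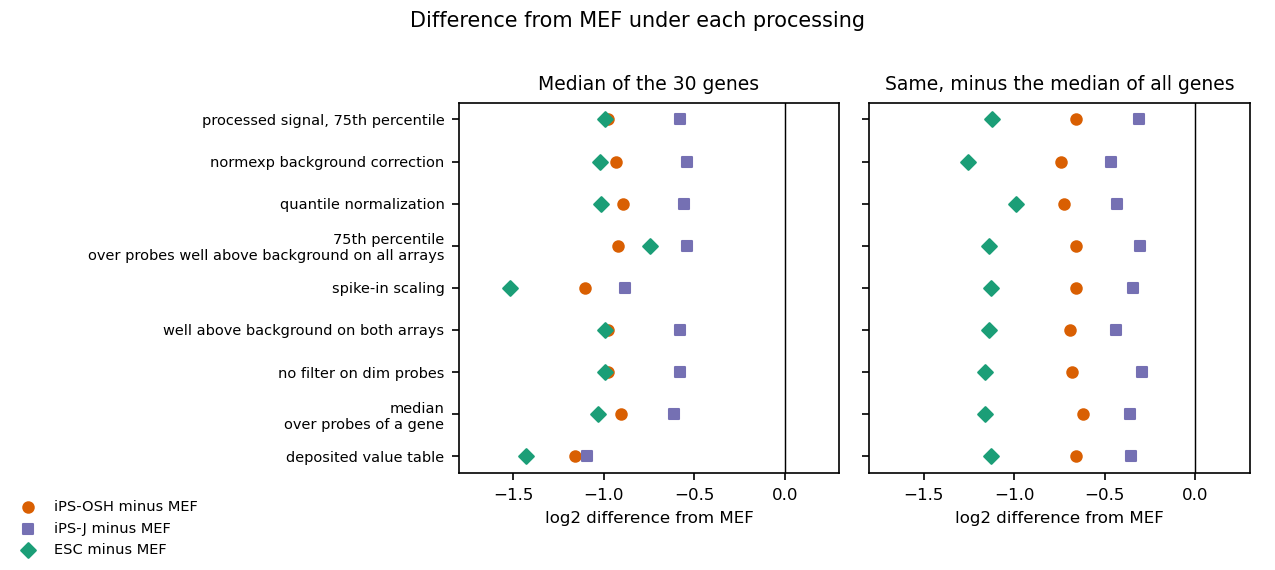
Median log2 difference from MEF of the 30 genes under the main processing (top) and 8 alternatives, as it stands (left) and after subtraction of the median of all genes (right). The medians lie below 0 in every case, and on the right between -1.25 and -0.29.

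The scaling sets where zero lies, and it moved the median of all genes against MEF between -0.50 and -0.17 for iPS-OSH, -0.73 and -0.07 for iPS-J, and -0.39 and 0.40 for ESC. Relative to that median, the median of the 30 genes lay between -0.74 and -0.62, -0.47 and -0.29, and -1.25 and -0.99. The count of genes brightest in MEF ranged from 22 to 25 of 30. Other probes of the same genes had the sign of the called difference from MEF in 8 of 8 cases for iPS-OSH, 4 of 5 for iPS-J and 4 of 5 for ESC, and were also 2-fold different in 4, 3 and 4. For calls between pluripotent arrays the sign was met in 2 of 4 cases for iPS-OSH against ESC and 1 of 1 for iPS-J against ESC. It was met in 3 of 4 for iPS-OSH against iPS-J, and each comparison held 1 probe also 2-fold different.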

How the data were processed

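RNA of 4 cell populations was measured on 1 array each. The authors deposited the scanner output, in which the intensity of 62976 spots was background-subtracted within each array by Agilent Feature Extraction 10.5.1.1, per the file headers, and arrays were not normalized to each other. Control and outlier spots (203 to 531 per array) were left out. Each array was scaled to the 75th percentile of its processed intensity (1564, 1241, 1307 and 1765 for iPS-OSH, iPS-J, ESC and MEF), spots of a probe were averaged, and each gene name took its brightest probe. A gene entered a comparison if either array had it well above background, and where just 1 did, the difference was a lower bound against the lowest such signal. The members and lists were chosen with earlier results of these data known. Named were the 30 members and, of the 53 other pathway genes, the 3 farthest in each direction per comparison among those 2-fold different.

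Names follow the iPS and ESC files, since the MEF file names 1732 spots differently, among them 1 probe of Hsd17b7. All 30 members kept their symbol when matched by accession to RefSeq. Probe positions are those of the files (mm9), with no exon or UTR assigned. The authors' value table holds the same intensity, linear and uncentred, within 0.497% of the scanner output, with array medians of 152, 116, 199 and 199. The alternatives were normexp with an offset of 50 (limma 3.58.1, R 4.3.3), other scalings, other filters, the median over probes and the value table. Calculations used Python 3.11.15 and pandas 2.3.3, and the procedure was tested on simulated data.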

Additional observations from a re-analysis of the deposited data

How the results depend on the processing

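Counts and medians of the 30 genes were recomputed under 8 alternatives. A count was held to stay if it changed by no more than 1.5 times. A median was held to stay if it shifted by less than the technical SD of a difference for 1 probe (0.12 to 0.20 log2). That SD is not the spread of a median over 30 genes, which was not computed. Of 144 such values 119 stayed and 25 moved. The filters on dim probes could not move any value, since all 30 genes were well above background on all 4 arrays. Their values are among the 119 by construction. No difference of 2-fold or more in a member changed sign.

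With spike-in scaling, the median was -0.88 for iPS-J minus MEF, 23 genes were lower in ESC than MEF (median -1.52), 8 were higher and 0 lower in iPS-OSH than ESC (median 0.50), 6 were higher in iPS-J than ESC (median 0.58), and 2 were higher in iPS-OSH than iPS-J (median -0.071). With the 75th percentile over probes well above background on all arrays, the median was -0.74 for ESC minus MEF, 2 genes were higher in iPS-OSH than ESC (median -0.088, so the sign turned), and 1 was higher in iPS-J than ESC (median 0.15). With the deposited value table, which is unscaled, the medians were -1.16, -1.09 and -1.43 for iPS-OSH, iPS-J and ESC minus MEF, 1 gene was higher in iPS-J than MEF, 1 was lower in iPS-OSH than ESC (median 0.36), and 3 were higher in iPS-OSH than iPS-J (median 0.082, so the sign turned). Normexp correction and the median over probes each left 1 gene lower in iPS-OSH than ESC. The scalings move all genes of an array together by construction, and for the other settings the cause was not tested.

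Of the 2-fold differences from MEF, 13 of 17 in iPS-OSH, 10 of 14 in iPS-J and 13 of 16 in ESC were called under every alternative. Of the alternatives, the filters on dim probes could not change a call. Those lost under at least 1 were Tm7sf2, Insig1, Pmvk and Insig2 in iPS-OSH, Insig2, Nsdhl, Lss and Abca1 in iPS-J, and Lss, Srebf1 and Ebp in ESC. Between pluripotent arrays 2 of 6 (iPS-OSH against ESC: Abca1 and Hsd17b7), 2 of 4 (iPS-J against ESC: Fdps and Tm7sf2) and 3 of 3 (iPS-OSH against iPS-J) were called throughout. Taken singly, the other probes of the genes in that last comparison passed the 2-fold rule in the same direction in 1 of 4 cases. No paired analysis was possible because each population has 1 array and the labels give no replicate numbers. The number of arrays limits the precision.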
